A study of Mus musculus with 2 samples.

Results

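Tcf1 binding was examined at 4 loci of cytotoxic effector genes, the granzyme cluster with Gzmb, Fasl, Ifng and Eomes. A peak belonged to a locus when its midpoint lay in a fixed window of the mm9 genome: chr14:56770000-56950000 for Gzmb, chr1:163600000-163850000 for Fasl, chr10:117800000-117950000 for Ifng and chr9:118330000-118450000 for Eomes. Of the 2827 Tcf1 peaks that the authors listed, 12 (0.424%) lay in these windows. The Fasl window held 7 peaks, the Gzmb window 4 and the Ifng window 1, and the Eomes window held none.

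The peaks came from chromatin immunoprecipitation followed by sequencing (ChIP-seq), which recovers DNA fragments crosslinked to a protein, in CD8 T cells. The cells came from the spleens of C57BL/6 mice of wild-type genotype and were purified by removing the other cells, which left the CD8 T cells untouched. The labels name no stimulation of the cells. They give neither the age nor the number of the mice. The study had 2 libraries, 1 precipitated with custom-made antiserum to Tcf1 and the other, as a control, with pre-immune rabbit serum. The peak list is named for Tcf1 and gives positions and a score per peak, and the score column names no library. With 1 library per serum there is no replicate check of any peak, and the read depth is unknown. The signal of the control serum at these peaks was not analysed here. No test was made, because the 12 peaks were chosen by their listed positions and the loci with the list in view: every share of the genome below is a description.

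Tcf1 is a DNA-binding protein of T cells, encoded by Tcf7, whose HMG box binds the minor groove and bends DNA. It can act with beta-catenin as an activator or with Groucho/TLE proteins as a repressor, and it is abundant in naive and memory T cells and falls in terminal effector cells. Gzmb, Fasl and Ifng follow the opposite course: they are low in resting CD8 T cells and rise after antigen stimulation. Gzmb encodes granzyme B, a serine protease of the cytotoxic granule. Fasl encodes Fas ligand, a membrane protein of the TNF family that triggers death of cells bearing Fas. Ifng encodes the cytokine interferon gamma, and Eomes encodes a T-box transcription factor of cytotoxic and memory CD8 T cells that genetic work has placed downstream of Tcf1.

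The promoters of the 4 genes are shown to give the sequence before each gene's start, searched for the motif of the TCF/LEF family. They are the 250 bases before each RefSeq start, from GRCm38.p6, 5′ to 3′ on the gene's strand. These coordinates are in another build than the peaks and cannot be set against them. All 4 genes matched 1 promoter entry each, and capitals mark CAAAG, which is the shared core CTTTG of the TCF/LEF motif read on the opposite strand.
Gzmb promoter (chr14:56262335-56262584, minus strand): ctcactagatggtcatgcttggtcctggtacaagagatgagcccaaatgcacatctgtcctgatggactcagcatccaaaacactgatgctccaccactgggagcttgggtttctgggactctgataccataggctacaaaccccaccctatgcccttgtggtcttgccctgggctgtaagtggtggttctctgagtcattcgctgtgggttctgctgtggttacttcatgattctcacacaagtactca
Fasl promoter (chr1:161788496-161788745, minus strand): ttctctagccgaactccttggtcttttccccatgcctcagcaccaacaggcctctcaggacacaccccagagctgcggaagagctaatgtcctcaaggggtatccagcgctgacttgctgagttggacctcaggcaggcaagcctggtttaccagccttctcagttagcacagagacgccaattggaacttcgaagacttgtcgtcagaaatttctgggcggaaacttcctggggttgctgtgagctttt
Ifng promoter (chr10:118440796-118441045, plus strand): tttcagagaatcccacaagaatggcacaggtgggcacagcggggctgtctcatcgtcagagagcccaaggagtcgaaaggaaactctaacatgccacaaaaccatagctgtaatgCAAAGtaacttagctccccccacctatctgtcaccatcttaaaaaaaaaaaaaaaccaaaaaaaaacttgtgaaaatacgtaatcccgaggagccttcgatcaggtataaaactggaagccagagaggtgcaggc
Eomes promoter (chr9:118477939-118478188, plus strand): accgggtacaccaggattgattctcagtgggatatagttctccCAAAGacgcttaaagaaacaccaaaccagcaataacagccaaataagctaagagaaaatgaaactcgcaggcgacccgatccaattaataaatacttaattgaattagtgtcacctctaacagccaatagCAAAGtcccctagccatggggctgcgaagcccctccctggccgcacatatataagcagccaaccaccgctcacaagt

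The core was absent from the 250 bases of Gzmb and Fasl, present once in Ifng, beginning 135 bases before the start, and present 2 times in Eomes, beginning 207 and 77 bases before it. A core on either strand (CTTTG or CAAAG) was found in 48.6% of the 32851 RefSeq promoters of the same length. Longer TCF/LEF words, made of the core CTTTG followed by a pair of bases that are each A or T and so overlapping it, were also searched on both strands. None of the 4 promoters held one, against 14.8% of all promoters. These counts describe letters in a short window and say nothing on binding there. The sequences under the peaks themselves are not printed, since no mm9 genome was used here.

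Fasl was the locus with the most Tcf1 peaks, and its window was also the longest. Per 100 kb of window there were 2.8 peaks at Fasl, 2.22 at Gzmb, 0.667 at Ifng and 0 at Eomes. The 7 Fasl peaks spread over 134 kb of chromosome 1, and their scores ran from 6.97 to 20.58. Windows of the same length (250 kb) tiled over the autosomes held at least 1 peak in 20.6% of 9504 cases, and at least 7 peaks in 3 of them (0.0316%). The fullest of these windows held 8. The score is the authors' own value for a peak, without a stated unit, and is used here only to rank peaks within this list, whose median was 11.17.

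The peak nearest to Fasl lay at chr1:163709110-163709661, with a score of 15.59, and was 552 bp wide, the widest of the 12. Its midpoint was 0.615 kb from the position of about 163.71 Mb at which Fasl was placed. That position is a rounded one, so whether the peak lay in the gene, before it or after it was not resolved. Among all 2827 peaks, 85.2% had a lower score. The next peak, chr1:163705362-163705700, lay 3.41 kb away and scored 9.83. Another, chr1:163696792-163697178, with a score of 7.67, lay a further 8.18 kb off. These 3 peaks formed a single place of 12.9 kb when peaks up to 10 kb apart were joined, and all 3 midpoints lay below the rounded Fasl position. The midpoint of chr1:163705362-163705700 was only 4.47 kb from that position, within its rounding, so the side of the gene was not resolved for this peak either.

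The other 4 Fasl peaks lay farther from that position, on both sides. A pair on the higher side, at chr1:163729064-163729457 and chr1:163734505-163734937, scored 11.28 and 15.82 and had midpoints 19.3 and 24.7 kb from the Fasl position. RefSeq places Fasl on the minus strand with Suco as the next protein-coding gene above it and Tnfsf18, another ligand gene of the TNF family, as the next below. If the orientation in mm9 is the same, this pair lay on the upstream side of Fasl, between the gene position and the side of Suco. On the lower side, chr1:163643071-163643476 lay 66.7 kb from Fasl and had the lowest score of the 12, at 6.97. The highest-scoring Fasl-window peak, chr1:163600980-163601402, lay 109 kb away with a score of 20.58 (rank 91 of 2827). It was 1.19 kb inside the lower edge of the window, the closest of the 12 peaks to an edge. Of the 7 peaks, 5 lay below the rounded Fasl position and 2 above it. The 5 include the 2 nearest peaks, whose side of the gene itself was not resolved. The highest and the lowest score of the locus both belonged to peaks far from the gene.

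Both flanks of the Fasl peaks were without listed peaks. Below them the next listed Tcf1 peak was 1363 kb away, at chr1:162237489-162237725 with a score of 13.76, and above them 1469 kb away, at chr1:165204115-165204330 with a score of 13.71. The median distance between neighbouring autosomal peaks was 431 kb, and stretches as long as these flanks made up 66.4% and 63.4% of the total length between peaks. When peaks up to 100 kb apart were joined, a distance chosen after seeing the data, the autosomes held 2007 islands, and 343 of them had at least 1 Mb without a peak on both sides. Of the 5 islands with 7 or more peaks, 2 had such flanks, the Fasl island and one of 12 peaks at chr3:130604342-130911877. Empty flanks of this length were therefore not particular to Fasl.

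**Figure D1:**
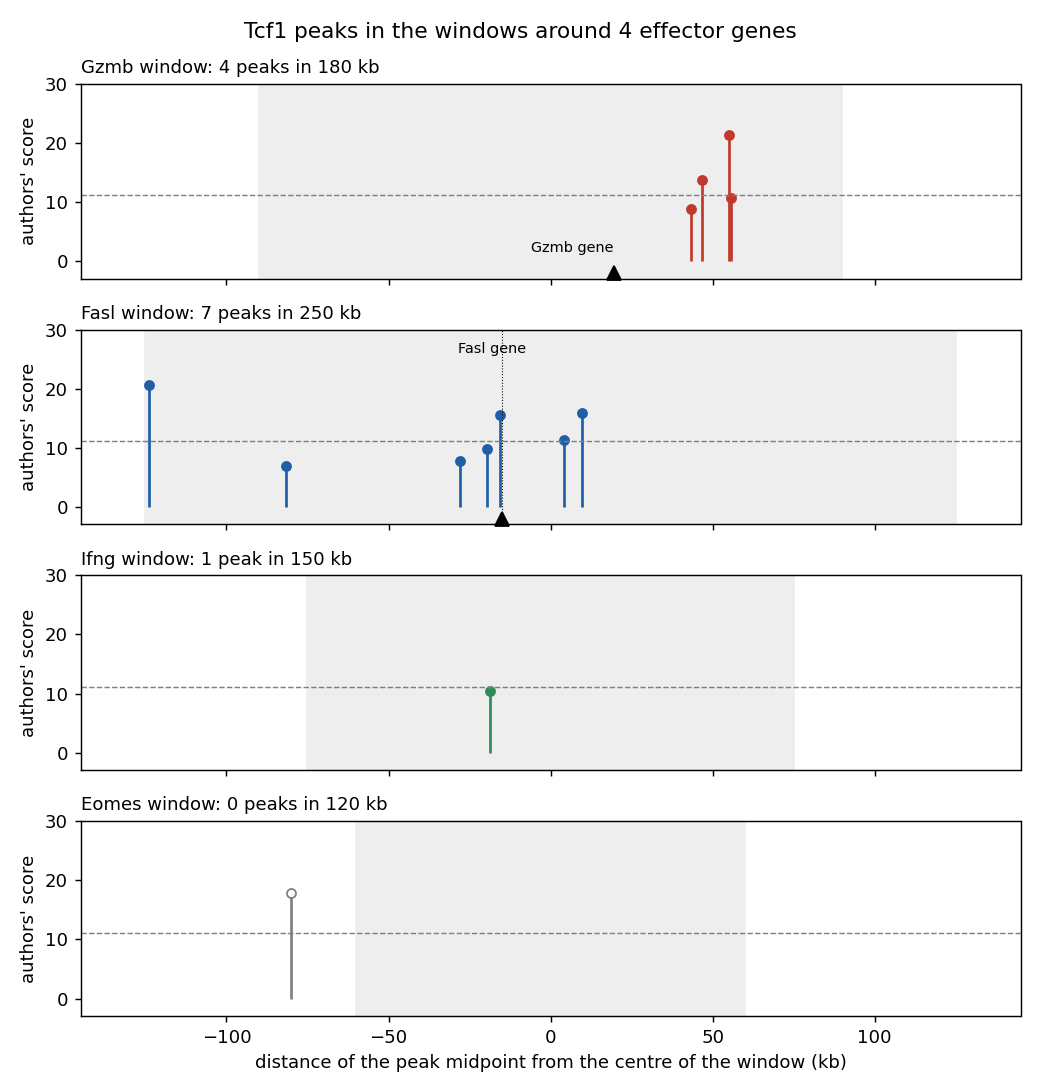
Position and score of the Tcf1 peaks at the 4 loci. The x axis is the distance of the peak midpoint from the centre of the window (kb), the y axis the authors' score, grey shading the window, filled points the member peaks, the open point the nearest listed peak outside the Eomes window, triangles the Gzmb and Fasl positions, the dotted line the Fasl position again and the dashed line the median score of the list (11.17). The 4 Gzmb peaks sit together on one side of the gene, whereas the Fasl peaks lie on both sides of it.

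The granzyme locus carried 4 Tcf1 peaks, all packed on one side of Gzmb. They lay within 12.7 kb, between 56903269 and 56915942 on chromosome 14, and the first began 22.3 kb beyond the higher edge of Gzmb, which spans about 56.878 to 56.881 Mb. RefSeq places Gzmb on the minus strand as the last of 7 granzyme genes of the chromosome 14 cluster, after Gzme, Gzmd, Gzmg, Gzmn, Gzmf and Gzmc, with Atp12a as the next protein-coding gene above. If mm9 has the same order and orientation, the 4 peaks lay upstream of Gzmb, outside the row of granzyme genes. Of the autosomal windows of this length (180 kb), 15.7% of 13203 held at least 1 peak and 30 (0.227%) held at least 4.

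The 4 granzyme peaks differed in score. The first from the gene, chr14:56903269-56903561, had a score of 8.82, which 26.3% of all peaks fell below. The second, chr14:56906747-56906948, began 3.19 kb farther and scored 13.61. It was the narrowest of the 12, at 202 bp. The third, chr14:56914844-56915277, had a score of 21.24, the highest of the 12 and rank 84 in the list, and its midpoint was 34.1 kb from the higher edge of Gzmb. The fourth, chr14:56915681-56915942, scored 10.58 and lay 403 bp beyond the third. A gap of 403 bp or less separated 36 of the 2648 neighbouring pairs on the autosomes (1.36%). The scores did not fall steadily with distance from Gzmb within this run.

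At Gzmb itself no peak was listed. From the first of the 4 peaks downwards, through Gzmb, the next peak was 1765 kb away, at chr14:55137550-55137867 with a score of 14.69, and it lay 1740 kb below Gzmb. The 6 other granzyme genes lie on that side of Gzmb in the RefSeq order, and their mm9 positions were not used here. Of the 2648 autosomal stretches between neighbouring peaks, 431 (16.3%) were as long or longer. These made up 56.6% of the total length between peaks. How often a gene lies in a stretch of this length was not measured. On the other side, the next peak was 397 kb beyond the fourth, at chr14:57312678-57313007 with a score of 11.14.

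The granzyme peaks were one of 8 autosomal runs in which at least 4 peaks each lay within 10 kb of the next. The 8 runs were not screened for repeated sequence, and the signal of the control serum in them was not analysed. Among these runs the granzyme run ranked second by median score, at 12.1, behind a run at chr2:113962527-113979269 with 15.81. By its highest-scoring peak it came after that run (22.57) and a run at chr11:98978127-98998156 (22.28).

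Ifng had a single listed peak. It lay at chr10:117856141-117856473, was 333 bp wide and had a score of 10.51, just under the median of the list, with 43.3% of all peaks lower. It was 18.7 kb below the centre of the window. No mm9 position of Ifng itself was used here, so the distance of the peak from the gene is not stated. Of the autosomal windows of this length (150 kb), 13.3% held at least 1 peak. The nearest peaks on either side were 471 kb below, at chr10:117384920-117385421 with a score of 26.11 (rank 21 of the list), and 214 kb above, at chr10:118070508-118070870 with a score of 5.24. The flanking peaks thus had a higher and a lower score than the Ifng peak, and both lay outside the window.

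No Tcf1 peak was listed in the Eomes window. Windows of its length (120 kb) held at least 1 peak in 10.9% of 19808 cases, so an empty window of this size was the usual state. The nearest peak was outside the window by 19.98 kb, at chr9:118309799-118310021, with a score of 17.91 (rank 199 of 2827) and a width of 223 bp. It lay on the lower side, which for a plus-strand gene such as Eomes is the upstream side if the orientation in mm9 is the same. With windows widened by 50 kb on each side, Eomes therefore had 1 peak and the counts at the other loci stayed at 4, 7 and 1. On the higher side, towards Golga4 in the RefSeq order, the next peak was 549 kb from the window, at chr9:118999079-118999181 with a score of 6.01. The stretch without a peak that contains the Eomes window was 689 kb long, and stretches as long or longer were 39.8% of the autosomal stretches by number and 85.9% by length. The list gives no reads, so an absent peak does not show that Tcf1 was absent.

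**Figure D2:**
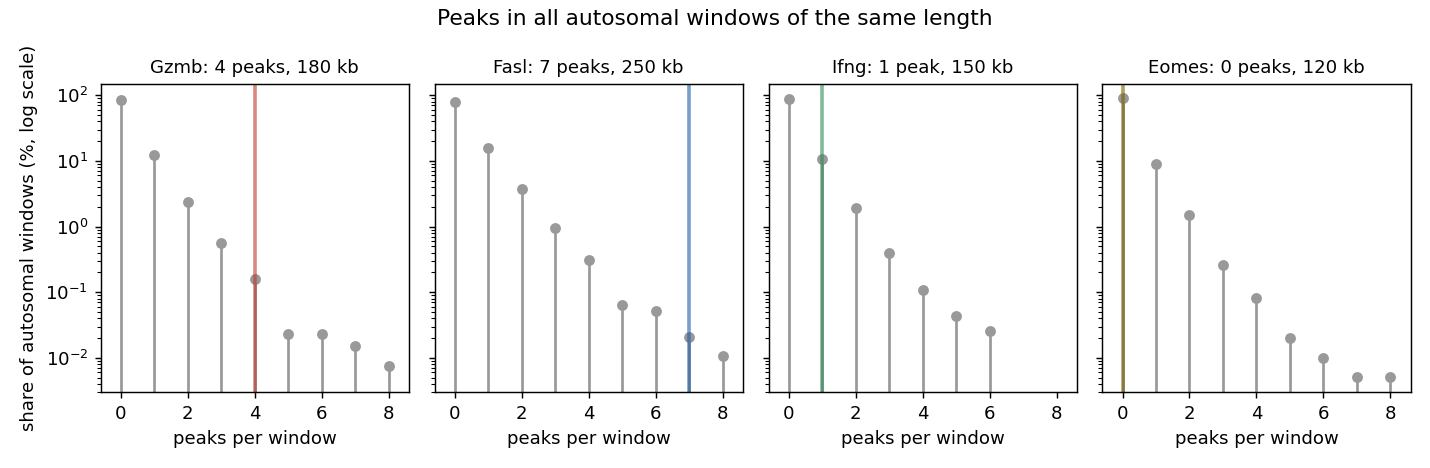
Number of Tcf1 peaks in all autosomal windows of the same length as each locus window. The x axis is the number of peaks in a window, the y axis the share of windows (%, log scale), grey points the tiled windows and the coloured line the count at the locus. Fasl (7 peaks) and Gzmb (4) lie far to the right, at counts reached by 0.0316% and 0.227% of windows, and Eomes lies at the commonest count, 0. The tiled windows were placed without regard to genes, whereas the locus windows surround genes chosen with the list in view. The shares are therefore descriptions and not tests.

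As a group, the 12 peaks were of middling score. Their median score was 10.93, against 11.17 for the list, and 6 of the 12 were at or above that median. In all, 5 of them reached the top 25% of the list (13.45 or more) and 2 the bottom 25% (8.70 or less). By locus, 4 of the 7 Fasl peaks, 2 of the 4 Gzmb peaks and 0 of 1 Ifng peaks were at or above the list median. The 2 highest scores, 21.24 near Gzmb and 20.58 in the Fasl window, were the only ones of the 12 in the top 10% of the list (16.4 or more). The maximum of the list was 45.69.

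The Fasl peaks were wide by the standard of the list, and the granzyme peaks were mixed. The median width of the 12 was 390.5 bp, against 276 bp for the list, and 10 of them were at least as wide as the list median. All 7 Fasl peaks were, with a median of 406 bp and a range of 339 to 552 bp, and 6 of them were in the widest 25% of the list (368 bp or more). The Gzmb peaks were 293, 202, 434 and 262 bp wide, with 1 of the 4 in that class. Autosomal peaks with a neighbour within 10 kb had a median width of 332 bp, against 270.5 bp for the others, so crowded peaks had the larger median width across the list. In the Fasl window, the peaks without such a neighbour were 423 and 406 bp wide. Whether crowding bears on the width of the Fasl peaks was not tested.

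**Figure D3:**
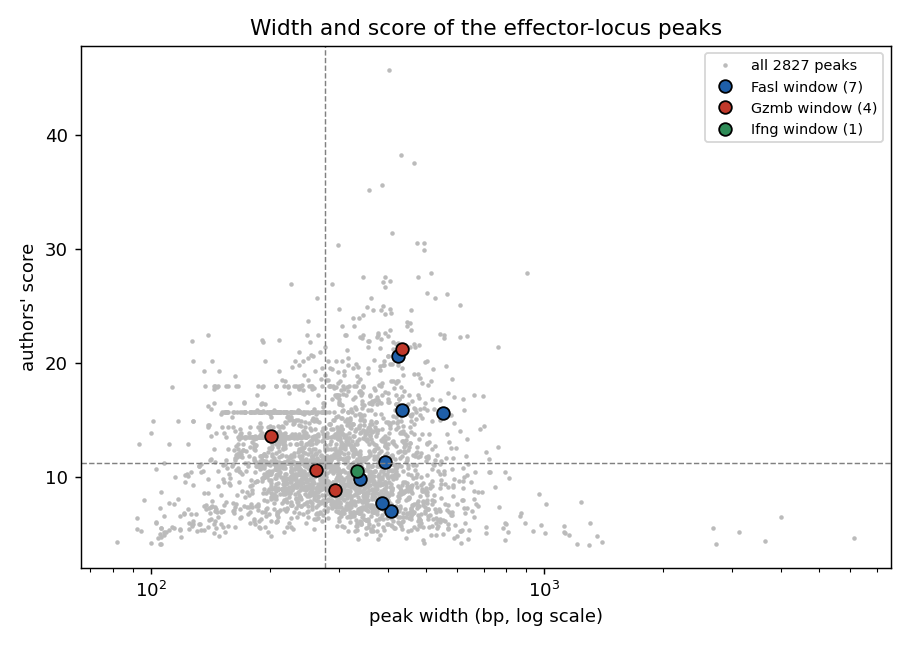
Width (x axis, bp, log scale) and authors' score (y axis) of all 2827 Tcf1 peaks (grey) and of the 12 peaks at the effector loci (coloured by locus). Dashed lines are the medians of the list, 276 bp and 11.17; all 7 Fasl peaks lie to the right of the width median, while their scores lie on both sides of the score median.

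Joined at gaps of up to 10 kb, the 12 peaks made 6 places: 4 in the Fasl window, with 1, 1, 3 and 2 peaks, and 1 each at Gzmb and Ifng. Of the 2454 autosomal places, 174 (7.09%) held at least 2 peaks, and 29 (1.18%) at least 3. Of the 6 places at the effector loci, 3 held at least 2 peaks. Other effector genes of CD8 T cells, such as Prf1, Gzma, Gzmk, Tbx21, Prdm1 and Klrg1, were not analysed here because their mm9 positions were not used.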

How the data were processed

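The authors deposited 1 list of Tcf1 peak intervals with a score per peak, named strong peaks in the file's track line. The build mm9 and the tools MACS 1.4.1, Bowtie 0.12.5 and CASAVA 1.8 appear in the submitters' processing notes, which give no roles or settings. The score's meaning, the threshold, the treatment of multi-mapping and duplicate reads, and the use of the control library are not given in the sources used here. Per the labels' protocols, libraries had 18 PCR cycles and fragments of 220 to 400 bp.

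Peaks were assigned to the windows by midpoint. The windows, the approximate Gzmb and Fasl positions and the gene lists were chosen with earlier results of these data known. Named were the 4 genes, every peak in a window, and the neighbouring granzyme and protein-coding genes. Background shares come from full, non-overlapping windows tiled from the first to the last peak of each autosome, without regard to genes. Gaps are edge to edge, and positions are counted from 1. Gene order, strand and promoters are from RefSeq (GRCm38.p6), and no coordinate was converted. The shorter core CTTTG was added after the longer words had been searched. Counting and joining were tested on simulated lists. Calculations used pandas 2.3.3, NumPy 2.4.6 and SciPy 1.17.1 under Python 3.11.15, and plots used Matplotlib 3.10.9.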

Additional observations from a re-analysis of the deposited data

How the results depend on the processing

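Of 34 alternatives to 12 values, 25 stayed within 1.5 times a count or share, or within the 95% order-statistic interval of a median over the 12 peaks. This rule is loose. The interval of the median score ran from 8.82 to 15.82, and a change from 6 to 9 places counted as staying. With the peaks at or above the list's median score, which takes out peaks by construction, the counts were 2 at Gzmb, 4 at Fasl and 0 at Ifng, and Eomes stayed at 0. The shares of windows with at least 1 peak were then 8.98% for the length of Gzmb, 12.1% for Fasl, 7.63% for Ifng and 6.16% for Eomes. Windows widened by 50 kb gave 1 peak at Eomes. Windows narrowed by 20 kb gave 6 peaks at Fasl, without the peak at the lower edge. The places numbered 9 at gaps of up to 5 kb, 4 at 50 kb and 3 at 100 kb, the last added after seeing the data. No paired analysis was possible because there is 1 library with each serum. Without reads or control signal, precision of single peaks and weak binding below the authors' threshold cannot be judged.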
